A study of Mus musculus with 6 samples.

Results

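The transcripts of 10 genes of the Notch pathway were followed in C3H10T1/2 cells, a multipotent mouse mesenchymal line used as a culture model of bone formation. The genes were 3 receptors (Notch1, Notch2 and Notch3), 2 ligands (Jag1 and Dll1) and 5 target genes (Hes1, Hey1, Hey2, Heyl and Nrarp). They were chosen by name as Notch signalling genes, and all 10 were found by symbol among the 55401 Ensembl genes of the count table. There were 6 libraries of total RNA, 1 for each condition. The cells carried a control short hairpin RNA (shControl, labelled WT), a hairpin against Nfib (shNFIB) or a hairpin against Kmt2a, the gene of the histone methyltransferase MLL1 (shMLL1). Each line was taken untreated at day 0, at confluence in growth medium, and at day 7 in osteogenic medium, which held dexamethasone (0.1 μM), β-glycerophosphate (20 mM) and a stable form of ascorbic acid (100 μg/ml). Time in culture and medium therefore cannot be told apart. Each line was made with its own hairpin, and whether it was a clone or a pool is not given in the sources used here, so that a difference between lines cannot be told apart from a difference between derivations.

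Notch signalling passes between touching cells. A ligand of the Jagged or Delta family on the surface of a cell binds a Notch receptor on its neighbour, the receptor is cut by ADAM proteases and γ-secretase, and its intracellular domain joins the DNA-binding protein RBPJ in the nucleus to switch on genes such as those of the Hes and Hey repressors. In cells of the osteoblast lineage the pathway is known for holding progenitors back from maturation, and Hes and Hey proteins can bind the osteogenic factor Runx2. NFIB is a DNA-binding transcription factor of the nuclear factor I family, and MLL1 places methyl groups on lysine 4 of histone H3.

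Of the 10 genes, Hey2 was the only member whose RefSeq promoter window (GRCm38.p6, 250 bases before to 50 after the gene start) held the letters GTGGGAA, a form of the RBPJ recognition sequence, on either strand. It held them at 2 places, which are shown because Hey2 is among the members with the largest changes below. Capitals mark the match, and both stretches run 5′ to 3′ on the strand of the gene, which is the minus strand of chromosome 10. Counted from the RefSeq gene start, the first match begins at position -207 and reads GTGGGAA on the opposite strand, and the second begins at position -4. The Hey2 coordinates given below come from another annotation (GENCODE M21), which starts the gene further upstream, at 30842801. By that start the second match lies within the gene.
Hey2, chr10:30842972-30843001: gcgcggtggcaTTCCCACgcctctgccaac
Hey2, chr10:30842781-30842810: ttgcgccctggctgggctgcagcGTGGGAA
Windows were at hand for Notch1, Notch2, Notch3, Jag1, Dll1 (2 windows), Hey2 and Nrarp, 8 in all, and not for Hes1, Hey1 and Heyl. The same 7 letters lie in 2097 of 32851 promoter windows (6.38%), so that a match describes the sequence and is not evidence of a binding site.

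The libraries held between 21608680 counts (shMLL1 at day 7) and 34774066 counts (shNFIB at day 0). Levels are given as CPM, the count of a gene relative to the library total after TMM scaling (trimmed mean of M-values). A gene with 3 counts or fewer in a library was taken to be at the floor there, which lay between 0.0939 and 0.123 CPM. In shNFIB, Nfib stood at 35.3 CPM at day 0 and 8.15 CPM at day 7, against 116 and 83.5 CPM in shControl. In shMLL1, Kmt2a stood at 30.9 and 34.8 CPM, against 74.7 and 66.3 CPM in shControl. Each target was lowest in its own line at both days. All 9 mesenchymal markers examined, Pdgfra, Pdgfrb and Prrx1 among them, were above the floor in every library. Kdr and Cdh5 (endothelial), Epcam (epithelial) and Adgre1 (macrophage) had at most 3 counts in each. Other genes of the same lists were detected. The endothelial list summed to 25.6 CPM in shNFIB at day 0, nearly all Tek. The epithelial list summed to 9.05 CPM in shControl at day 0, nearly all Cdh1. The haematopoietic list summed to 7.58 CPM in shMLL1 at day 7, nearly all Cd68. In a bulk culture, a smaller share of cells that make a transcript and less of it in each cell cannot be told apart.

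Per kilobase of exon, Jag1 stood above the 3 receptors in every library, and the Hey genes and Dll1 were lowest among those that could be followed. The mean over the 6 libraries was 18.1 CPM per kb for Jag1, 11.9 for Hes1, 7.67 for Notch2, 7.04 for Notch3 and 3.93 for Notch1. The ranges of Notch2 (5.43 to 9.36 CPM per kb) and Notch3 (4.40 to 11.9 CPM per kb) overlapped throughout, and those of Jag1 (10.6 to 36.0 CPM per kb) and Hes1 (4.12 to 19.4 CPM per kb) overlapped in part. The mean was 0.401 CPM per kb for Dll1, 0.288 for Hey1 and 0.218 for Hey2, whose ranges overlapped as well. Hes1 stood above the receptors in 4 libraries but not at day 7 in the knockdown lines. There it was at 5.55 CPM per kb in shNFIB, under Notch2 (7.48) and Notch3 (6.27), and at 4.12 CPM per kb in shMLL1, under all 3 receptors. Nrarp and Heyl, at 0.0244 and 0.00414 CPM per kb, were too low for a test. The other 8 members were among the 16660 genes that passed the filter on low counts.

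**Figure D1:**
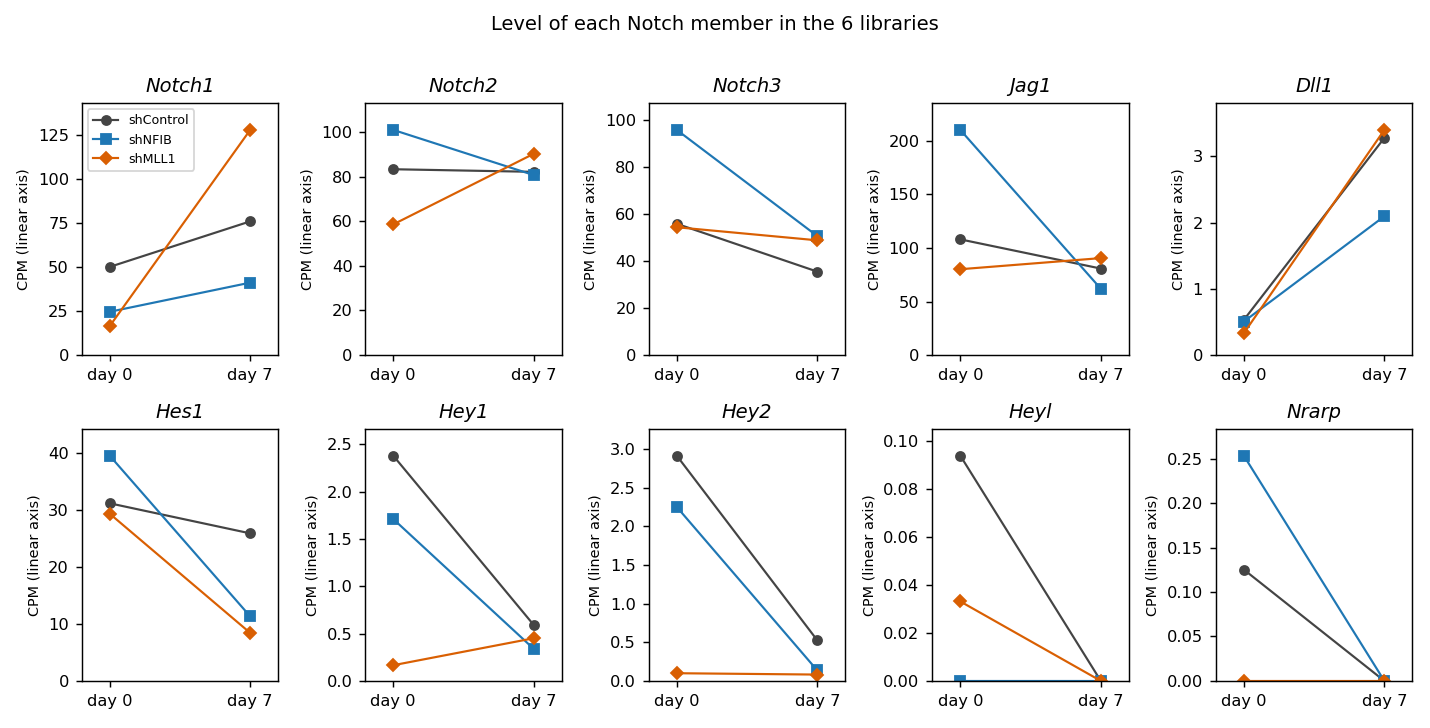
Level of each of the 10 Notch genes in CPM on a linear axis from 0, at day 0 and day 7, with 1 point per library and lines joining the days of shControl, shNFIB and shMLL1. Dll1 is higher at day 7 in all 3 lines, Hes1 stays near its day 0 level in shControl (31.1 and 25.8 CPM) and is low at day 7 in both knockdown lines (11.3 and 8.40 CPM), and Hey1 and Hey2 are near 0 at day 0 in shMLL1.

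The comparison of day 7 with day 0 asks how the pathway changes when the cells are put into osteogenic medium. Over the 3 lines, the ligand Dll1 rose 6.28-fold, while the targets Hey2 and Hes1 fell, 6.47-fold and 2.45-fold. The fall of Hey2 rests on shControl and shNFIB, through which it passed the filter on low counts. In shMLL1 it was at the floor at both days and could show no fall. The receptors and Jag1 were not called. By the quasi-likelihood test of edgeR, in which the line was a blocking term and p-values were adjusted by the Benjamini-Hochberg method over all genes tested, 1 of the 8 members was therefore called higher, where 16.8% of all genes were, and 2 were called lower, where 16.6% of all genes were. The median log2 fold change was -0.62 over the 8 members and 0.00 over all genes tested. A response that differs between lines counts as error in this test, and with 2 residual degrees of freedom it rests on few libraries.

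Dll1 (ENSMUSG00000014773, chromosome 17 of GRCm38 from 15367354 to 15376872, minus strand), a Delta-type ligand, went from 17 to 100 counts in shControl, from 16 to 62 in shNFIB and from 10 to 83 in shMLL1. The day 0 libraries lay between 0.331 and 0.532 CPM and the day 7 libraries between 2.10 and 3.40 CPM, without overlap. No overlap and a higher level at day 7 were seen in 1 of the 8 members and in 23.5% of all genes tested. Over the lines its log2 fold change was 2.65 (SE 0.44, adjusted p = 0.00609). The call held under each of 8 alternatives, in which the adjusted p ranged from 3.49e-06 to 0.0331. Of the exon bases of Dll1, 20.5% are shared with A930024N18Rik on the other strand, and the strand setting of the counting is not given in the sources used here.

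Hes1 (ENSMUSG00000022528, chromosome 16 from 30064384 to 30067796, plus strand), a basic helix-loop-helix repressor and the best known Notch target, was at 31.1 CPM in shControl, 39.5 CPM in shNFIB and 29.3 CPM in shMLL1 at day 0. At day 7 it was at 25.8, 11.3 and 8.40 CPM. All 3 day 7 libraries were under all 3 day 0 libraries, which held for 2 of the 8 members (Hes1 and Notch3) and for 21.0% of all genes tested. The size of the fall differed between the lines. Within shControl the log2 fold change was -0.27 (95% counting interval -0.40 to -0.13), against -1.80 (-1.98 to -1.63) within shNFIB and -1.80 (-2.03 to -1.58) within shMLL1. With 1 library on each side, the difference between the lines has no replicate check and was not tested. Over the lines it was -1.29 (SE 0.34, adjusted p = 0.0278). The value was -1.02 without shNFIB, where the call was lost (adjusted p = 0.0707), and the adjusted p ranged from 0.000721 to 0.0801 over 8 alternatives.

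Hey2 (ENSMUSG00000019789, chromosome 10 from 30832359 to 30842801, minus strand), a Hairy-related repressor of cardiovascular development, went from 93 to 16 counts in shControl and from 71 to 4 counts in shNFIB. In shMLL1 it had 3 counts at day 0 and 2 at day 7, both at the floor, so that no change could be detected there. The log2 fold change was -2.46 (-3.34 to -1.70) within shControl and -4.01 (-5.97 to -2.64) within shNFIB. Over the lines it was -2.69 (SE 0.70, adjusted p = 0.0261). Without shNFIB the call was lost, with a log2 fold change of -1.93 (adjusted p = 0.103), and over 7 alternatives the adjusted p ranged from 0.00191 to 0.103.

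Hey1 (ENSMUSG00000040289, chromosome 3 from 8663359 to 8667256, minus strand), the closest relative of Hey2 and also a known BMP target, went from 76 counts at day 0 to 18 at day 7 in shControl, from 54 to 10 in shNFIB and from 5 to 11 in shMLL1. It was thus lower at day 7 in shControl and shNFIB, by -2.00 (-2.84 to -1.26) and -2.32 (-3.48 to -1.35) on the log2 scale. In shMLL1 it was low at both days, and its log2 fold change of 1.42 (-0.20 to 3.32) was within counting error. Over the lines the log2 fold change was -1.25 (SE 0.77, adjusted p = 0.242), and Hey1 was called lower, with -2.19 (adjusted p = 0.0136), when shMLL1 was left out. The adjusted p ranged from 0.0136 to 0.64 over 8 alternatives.

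Nrarp, a small ankyrin repeat protein that dampens Notch activity, had 4 counts in shControl and 8 in shNFIB at day 0 and 0 counts in the other 4 libraries. In shNFIB its day 0 level was thus 2.50-fold above the floor of 3 counts at day 7. This ratio leaves out the counting error of the 8 counts and is not a lower bound on the change. Heyl, the remaining Hey gene, had 3 counts in shControl and 1 in shMLL1 at day 0 and 0 counts elsewhere, which is at the floor throughout. Of the 2582 exon bases of Nrarp, 79.4% are shared with Gm38287 on the other strand, which had 0 counts in every library. Reads in such bases can be left uncounted where the counting does not use strand, and 531 bases are then left for Nrarp.

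Marker genes of other cell types moved between the days in both directions. The summed level of 9 mural or smooth muscle markers was between 1423 and 1851 CPM at day 0 and between 194 and 292 CPM at day 7. Most of it was Acta2. Acta2, Cspg4 and Mcam were called lower and Myh11, at 0.0939 to 0.133 CPM at day 0 and 0.787 to 0.820 CPM at day 7, was called higher (log2 fold change 2.74, SE 0.58, adjusted p = 0.0135). Myh11 was at or near the floor at day 0 and passed the filter on low counts through the day 7 libraries. Its call of higher is therefore no independent support. Myocd, the master regulator of smooth muscle, had at most 3 counts in each library and 1 to 3 of the 9 genes were at the floor. The summed level of 8 endothelial markers was 24.0 CPM in shControl, 25.6 CPM in shNFIB and 4.41 CPM in shMLL1 at day 0 and between 4.14 and 5.75 CPM at day 7. Like Hey1 and Hey2, it was thus highest in shControl and shNFIB at day 0, and its part in their values was not tested. Tek made up the largest part of it at day 0 (17.7, 25.2 and 3.02 CPM) and was called lower at day 7 (-1.85, SE 0.53, adjusted p = 0.035). Erg followed in shControl and shMLL1 (6.04 and 0.762 CPM at day 0, 1.15 and 0.0410 CPM at day 7), had 0 counts in both shNFIB libraries and was called lower as well (adjusted p = 0.0224), while Esam was not called. In each library 4 to 6 of the 8 genes were at the floor, and Kdr and Cdh5 were at the floor in each library. The 5 haematopoietic markers went the other way, from 1.97 to 7.15 CPM in shControl, from 1.30 to 3.99 CPM in shNFIB and from 2.29 to 7.58 CPM in shMLL1. Nearly all of it was Cd68, which was called higher (1.80, SE 0.30, adjusted p = 0.00642). Epithelial markers summed to between 0.203 and 9.05 CPM, nearly all Cdh1, which was called lower (-3.76, SE 0.44, adjusted p = 0.00181). The 9 osteoblast markers summed to 265 CPM in shControl, 255 CPM in shNFIB and 267 CPM in shMLL1 at day 0. At day 7 they summed to 1556, 276 and 362 CPM, so that the lines differed in this rise. Its relation to the Notch genes was not tested.

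**Figure D2:**
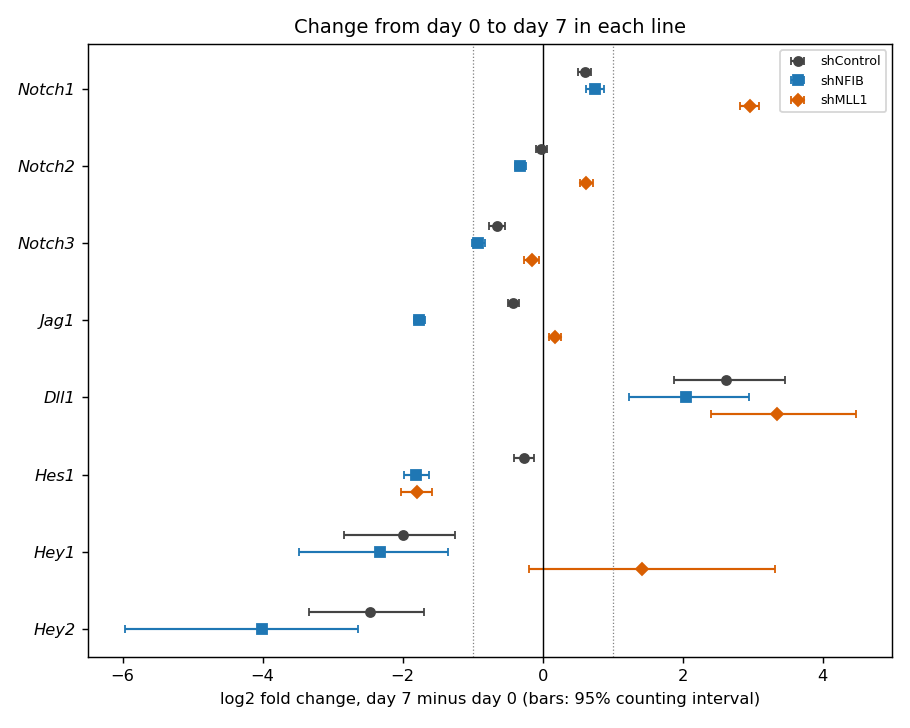
Log2 fold change from day 0 to day 7 within each line for the 8 members that passed the filter, with 95% counting intervals of the 2 libraries and dotted lines at 2-fold (Hey2 in shMLL1 is left out because both libraries are at the floor). The points of shControl and of the knockdown lines lie apart for Hes1 (-0.27 against -1.80 in both), and the point of shMLL1 lies apart for Notch1 (2.95).

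The receptors did not move together. Notch1 (ENSMUSG00000026923, chromosome 2 from 26457903 to 26516663, minus strand) was at 50.0 CPM in shControl, 24.6 CPM in shNFIB and 16.5 CPM in shMLL1 at day 0. At day 7 it was at 75.8, 41.1 and 128 CPM. It was higher at day 7 in each line, but by unequal amounts, and the level of shControl at day 0 lay above that of shNFIB at day 7. The log2 fold change was 0.60 (0.51 to 0.69) within shControl, 0.74 (0.61 to 0.87) within shNFIB and 2.95 (2.82 to 3.09) within shMLL1. Over the lines it was 1.40 (SE 0.46, adjusted p = 0.0556) and not called, although DESeq2 called it (adjusted p = 0.00573) and the range over 8 alternatives was 0.0011 to 0.0753. Without shMLL1 the value was 0.63, and over the lines left out it ranged from 0.63 to 1.80. Of the exon bases of Notch1, 9.76% are shared with genes on the other strand, of which 0610009E02Rik had 19 to 66 counts in a library, against 497 to 3116 for Notch1.

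Notch2 was the steadiest member, between 58.6 CPM in shMLL1 at day 0 and 101 CPM in shNFIB at day 0. Its log2 fold change was -0.02 (-0.10 to 0.06) within shControl, -0.32 (-0.40 to -0.25) within shNFIB and 0.62 (0.53 to 0.71) within shMLL1. Notch3, the receptor of mural cells, was at 56.0 CPM in shControl, 96.0 CPM in shNFIB and 54.5 CPM in shMLL1 at day 0. At day 7 it was at 35.6, 50.7 and 48.9 CPM, under every day 0 library. Its log2 fold change over the lines was -0.58 (SE 0.21, adjusted p = 0.0712) and was not called, except without shMLL1, where it was -0.82 (adjusted p = 0.0204, range 0.0204 to 0.288 over 8 alternatives). In shMLL1 alone, where it was -0.16, it turned to 0.05 with scaling by library size only.

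Summed per kilobase, the 3 receptors stood at 18.2 CPM per kb in shControl, 23.0 in shNFIB and 13.3 in shMLL1 at day 0. At day 7 the sums were 17.3, 16.6 and 23.4 CPM per kb. The make-up of this sum shifted with the lines and the days. Notch1 made up 19.4% of it in shControl, 7.52% in shNFIB and 8.68% in shMLL1 at day 0, and 30.7%, 17.4% and 38.4% at day 7. The share of Notch3 was 38.1%, 51.7% and 50.6% at day 0 and 25.4%, 37.7% and 25.9% at day 7. Within each line Notch1 thus had the larger share at day 7 and Notch3 the smaller.

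**Figure D3:**
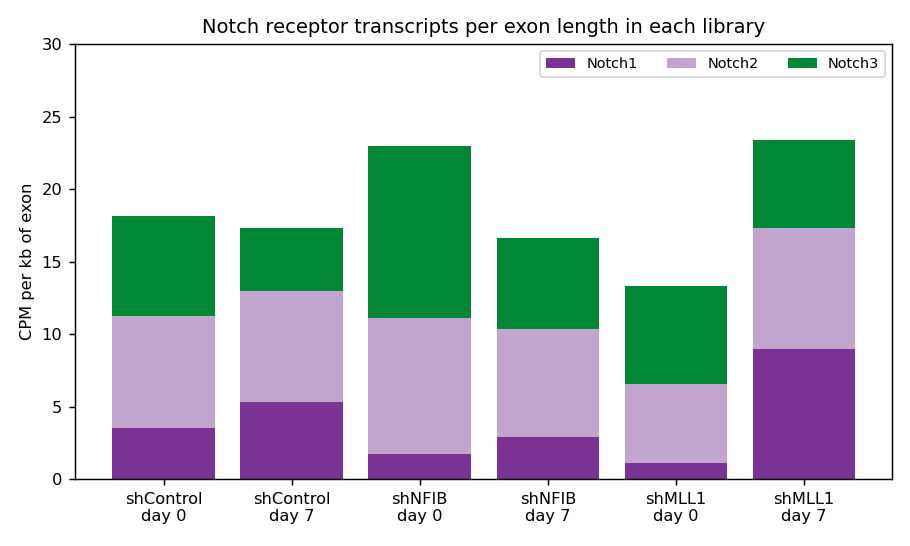
Stacked bars, from 0, of Notch1, Notch2 and Notch3 in CPM per kb of exon in each of the 6 libraries. The Notch1 part grows from day 0 to day 7 in each line, from 8.68% to 38.4% of the sum in shMLL1, while the Notch3 part shrinks.

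Jag1 (ENSMUSG00000027276, chromosome 2 from 137081456 to 137116644, minus strand), the Jagged-type ligand, made up at least 94.7% of the summed CPM per kb of Jag1 and Dll1 in every library. It was at 108 CPM in shControl, 210 CPM in shNFIB and 80.1 CPM in shMLL1 at day 0, and at 80.7, 61.9 and 90.5 CPM at day 7. The library of shNFIB at day 0 stood above all others, and the day 7 libraries overlapped with that of shMLL1 at day 0. The log2 fold change was -0.42 (-0.49 to -0.34) within shControl, -1.76 (-1.84 to -1.69) within shNFIB and 0.18 (0.09 to 0.26) within shMLL1. Over the lines it was -0.66 (SE 0.36, adjusted p = 0.192). Without shMLL1 it was -1.13 and called (adjusted p = 0.0282), and the adjusted p ranged from 0.0282 to 0.769 over 8 alternatives.

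Counted by a change past 2-fold without a test, shControl had 1 of the 8 members higher at day 7 (Dll1) and 2 lower (Hey1 and Hey2), where 21.8% and 14.9% of all genes tested were past 2-fold. In shNFIB 1 member was higher (Dll1) and 4 were lower (Jag1, Hes1, Hey1 and Hey2), against 16.8% and 13.6% of all genes. In shMLL1 3 were higher (Notch1, Dll1 and, within counting error, Hey1) and 1 was lower (Hes1), against 25.0% and 18.8%. With 8 members, these counts describe the list and no more.

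The comparisons of each knockdown line with shControl ask whether the pathway differs where Nfib or Kmt2a was knocked down in part. Before differentiation, shMLL1 stood apart for Notch1, Hey1 and Hey2, all of which were lower than in shControl, and shNFIB for a lower Notch1 and a higher Jag1 and Notch3. At day 7, Hes1 and Hey2 were lower in both knockdown lines. Both lines were compared with the same shControl libraries, so that a chance value in shControl enters both.

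At day 0, Hey2 had 93 counts in shControl and 3 in shMLL1, or -4.81 on the log2 scale (-7.18 to -3.28), and Hey1 had 76 and 5 counts, or -3.81 (-5.51 to -2.56). In shNFIB the differences of Hey2 (-0.37, -0.84 to 0.09) and Hey1 (-0.48, -1.01 to 0.05) were within counting error. The 3 endothelial markers tested were split in shMLL1 against shControl. Tek (3.02 against 17.7 CPM) and Erg (0.762 against 6.04 CPM) were lower, whereas Esam was higher (8 counts against 0). In shNFIB Erg had 0 counts, although Hey1 and Hey2 were not distinguishable from shControl there. Whether these markers bear on the Hey genes was not tested. Notch1 was lower in both lines, at -1.60 (-1.75 to -1.46) in shMLL1 and -1.03 (-1.15 to -0.90) in shNFIB on the log2 scale. Jag1 was higher in shNFIB, with 0.96 (0.90 to 1.02), as was Notch3, with 0.78 (0.69 to 0.86), whereas Jag1 was lower in shMLL1, with -0.43 (-0.51 to -0.35). Hes1 differed little at day 0, with 0.34 (0.22 to 0.46) in shNFIB and -0.09 (-0.22 to 0.04) in shMLL1. Past 2-fold, 1 of the 8 members was lower in shNFIB (Notch1), against 6.90% of all genes, and 3 were lower in shMLL1 (Notch1, Hey1 and Hey2), against 10.2%. No member was past 2-fold higher in either, where 7.71% of all genes were in shNFIB and 10.2% in shMLL1. Hey2 passed the filter on low counts through shControl and shNFIB and was at the floor in shMLL1. Its place among those lower in shMLL1 is therefore no independent support.

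At day 7, Hes1 was at 25.8 CPM in shControl, 11.3 CPM in shNFIB and 8.40 CPM in shMLL1. Against shControl the log2 fold change of Hes1 was thus -1.19 (-1.38 to -1.01) for shNFIB and -1.62 (-1.85 to -1.40) for shMLL1. Hey2 had 16 counts in shControl, 4 in shNFIB and 2 in shMLL1, and its log2 fold changes were -1.92 (-3.99 to -0.32) and -2.62 (-5.84 to -0.59). Hey1 was not distinguishable at this depth, with -0.80 (-2.08 to 0.39) and -0.39 (-1.62 to 0.77). Notch1 went opposite ways, with -0.88 (-0.99 to -0.78) for shNFIB and 0.75 (0.67 to 0.83) for shMLL1. Notch3 was higher in both, with 0.51 (0.40 to 0.63) and 0.46 (0.34 to 0.58). Dll1 was lower in shNFIB, with -0.64 (-1.13 to -0.17), and about the same in shMLL1, with 0.05 (-0.39 to 0.49). Past 2-fold, 2 of the 8 members (Hes1 and Hey2) were lower in shNFIB, against 12.2% of all genes, and 2 in shMLL1, against 6.41%. None was past 2-fold higher, where 8.01% of all genes were in shNFIB and 7.48% in shMLL1. Here too Hey2 was at the floor in shMLL1 and had passed the filter through the other lines. Its place among those lower in shMLL1 is no independent support.

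**Figure D4:**
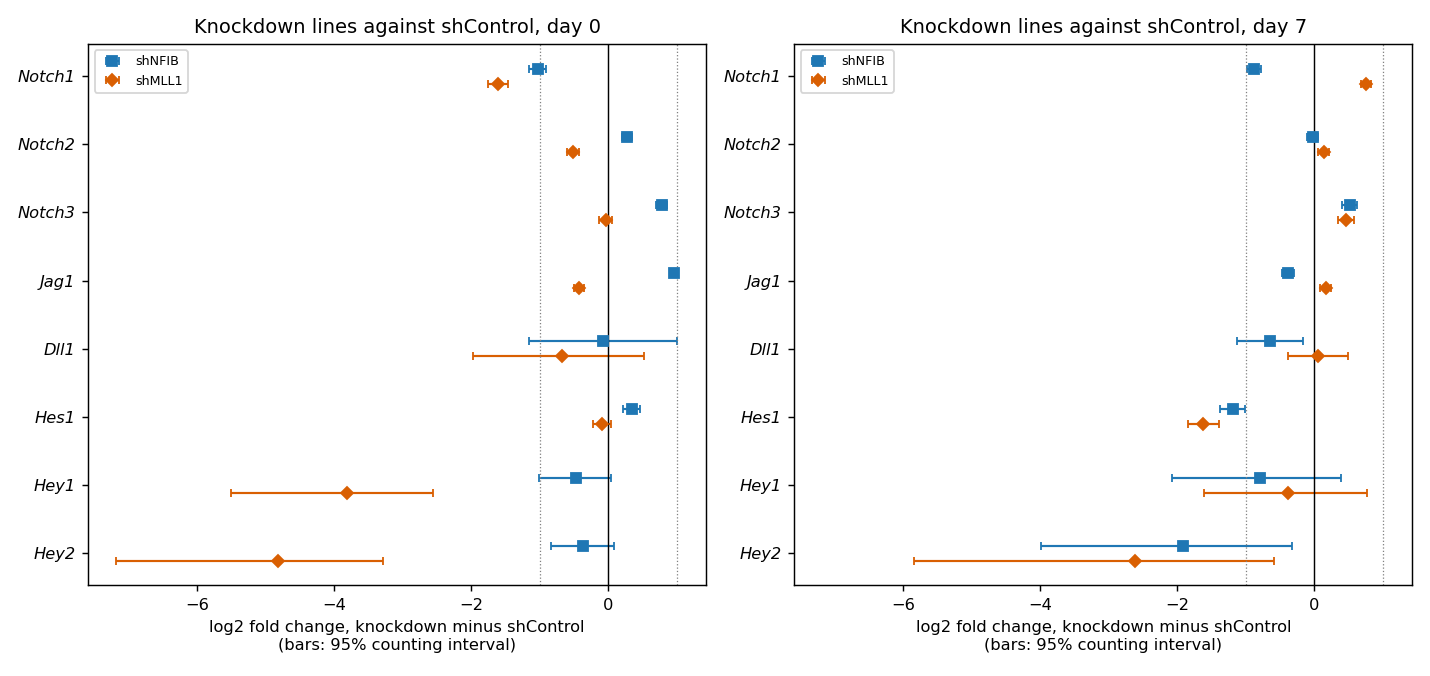
Log2 fold change of shNFIB and shMLL1 against shControl for the 8 members at day 0 (left) and day 7 (right), with 95% counting intervals and dotted lines at 2-fold. At day 0 Hey1 and Hey2 lie far to the left in shMLL1 (-3.81 and -4.81), and at day 7 Hes1 lies to the left in both lines (-1.19 and -1.62).

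With both days in the fit, the same test in edgeR called none of the 8 members in shNFIB, where 0.378% of all genes were called, and none in shMLL1, where 0.0300% were. At an unadjusted p under 0.05 there was 1 of the 8 members in each (Notch3 in shNFIB and Hey2 in shMLL1). Of all 16660 genes tested, 2093 in shNFIB and 1555 in shMLL1 were under it, so the member counts do not stand out. DESeq2 called more genes than edgeR over the whole table, as counted in the last section. Of the members, it called none in shNFIB and 1 in shMLL1. That was Hey2, with a log2 fold change of -4.10 (SE 0.96, adjusted p = 0.212) in edgeR and -3.90 (adjusted p = 0.0225) in DESeq2, and a range of the adjusted p of 0.00596 to 0.229 over 5 alternatives. Its fitted value depends on the prior count, since both shMLL1 libraries were at the floor. Hey2 passed the filter on low counts through shControl and shNFIB, where it was higher. A call of lower in shMLL1 is therefore no independent support. For Hes1 the log2 fold change was -0.91 (SE 0.41, adjusted p = 0.563) in shMLL1 and -0.49 (SE 0.41, adjusted p = 0.669) in shNFIB. Few calls were made in these comparisons over the whole table. Nfib in shNFIB (-2.39, SE 0.51, adjusted p = 0.14) and Kmt2a in shMLL1 (-1.10, SE 0.22, adjusted p = 0.149) were not called either.

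Of 56 further Notch pathway genes, 48 passed the filter. Between the days, 7 of them were called higher and 7 lower over the lines, beside 16.8% and 16.6% of all genes, with a median log2 fold change of -0.08. In neither knockdown line was any of the 48 called over both days. At an unadjusted p under 0.05 in edgeR these comparisons held 2093 of all 16660 genes tested in shNFIB and 1555 in shMLL1. Of the 48, Rbpj, Ncstn, Dner, Dlk1, Dtx3 and Spen were under it in shNFIB, and Jag2, Aph1c and Dtx4 in shMLL1. Rbpj was higher in shNFIB over both days, with a log2 fold change of 1.02 (SE 0.25, adjusted p = 0.176).

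Rbpj, the DNA-binding partner of Notch receptors, was lower at day 7 in each line. It was at 66.2 CPM in shControl, 122 CPM in shNFIB and 71.1 CPM in shMLL1 at day 0, and at 21.0, 46.1 and 16.8 CPM at day 7, without overlap. Its log2 fold change over the lines was -1.71 (SE 0.21, adjusted p = 0.00201). Of its partners, the coactivators Maml1, Maml2, Maml3, Ep300, Kat2b and Snw1 were not called.

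Among the other receptors and ligands, Notch4, known mostly from endothelial cells, rose from between 0.348 and 0.595 CPM to between 1.22 and 3.07 CPM. Its log2 fold change was 2.32 (SE 0.43, adjusted p = 0.00876), and the call was lost without shControl (adjusted p = 0.0513), with a range of 9.02e-05 to 0.0513 over 8 alternatives. Dlk1, a Delta-like protein that marks preadipocytes, fell from 9.20 to 3.22 CPM in shControl, from 3.83 CPM to 0 counts in shNFIB and from 5.10 CPM to 0 counts in shMLL1 (adjusted p = 0.0371). The fitted fold of Dlk1 depends on the prior count and is not given, and without the block on line it was not called (adjusted p = 0.249, range 4.18e-05 to 0.249 over 8 alternatives). Dll3 and Dll4 did not pass the filter, and Jag2 (-1.14, SE 0.65, adjusted p = 0.207) was not called. The lines differed in Jag2, which had 132 counts in shControl, 370 in shNFIB and 8 in shMLL1 at day 0. At day 7 it had 39, 79 and 16 counts.

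In the handling of the receptor, Adam10, the protease of the first activating cut, fell by 1.22 on the log2 scale (SE 0.28, adjusted p = 0.0167), from between 154 and 406 CPM to between 83.9 and 204 CPM. Without shControl its call was lost (adjusted p = 0.124, range 0.000202 to 0.124 over 8 alternatives). Of the 10 genes of proteolytic processing, Psen2, a γ-secretase subunit, was called higher with 0.68 (SE 0.21, adjusted p = 0.0451) and the other 8 were not called. None of the 4 glycosylation genes tested was called. Of all genes tested, 16.8% were called higher and 16.6% lower, so that counts in lists this short describe the lists and no more.

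Of the 11 ubiquitin and endocytosis genes tested, 4 were called higher and 2 lower, beside 16.8% and 16.6% of all genes. Neurl1a and Neurl1b, ubiquitin ligases that act on ligands, fell by 3.18 (SE 0.40, adjusted p = 0.00223) and 2.90 (SE 0.65, adjusted p = 0.0167) on the log2 scale. Without shNFIB the value of Neurl1b was -2.00. Neurl1a went from between 2.12 and 6.65 CPM to between 0.328 and 0.710 CPM. Of the Deltex ligases, which act on the receptor, Dtx3 rose by 1.84 (SE 0.23, adjusted p = 0.00214) and Dtx4 by 1.58 (SE 0.19, adjusted p = 0.00204). Like Rbpj, these 4 genes were called under each of the 8 alternatives. Numbl, a Numb-like adaptor, rose by 1.07 (SE 0.30, adjusted p = 0.0314), a call lost without shControl or without shMLL1 (adjusted p = 0.12 and 0.0616, range 0.00185 to 0.12). Mib2 was the fourth gene called higher.

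Among co-repressors, Tle2, a Groucho-type partner of Hes proteins, rose by 2.14 on the log2 scale (SE 0.47, adjusted p = 0.0159). It went from 48.8 to 273 CPM in shControl, from 42.7 to 67.6 CPM in shNFIB and from 19.5 to 179 CPM in shMLL1, a smaller step in shNFIB than in the other lines, and its value was 2.84 without shNFIB and 1.54 without shMLL1. Its call was lost without shControl (adjusted p = 0.0693, range 5.96e-06 to 0.0693). Ctbp1 and Hdac1 were called lower, and the other 6 co-repressors were not called, beside 16.8% of all genes called higher and 16.6% called lower. Of the 6 other Hes family genes, Hes6 and Hes7 passed the filter and neither was called, while Hes5 had 0 counts in every library. The calls of Psen2, Mib2, Ctbp1 and Hdac1 were lost without shControl, at adjusted p of 0.242, 0.147, 0.184 and 0.21.

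**Figure D5:**
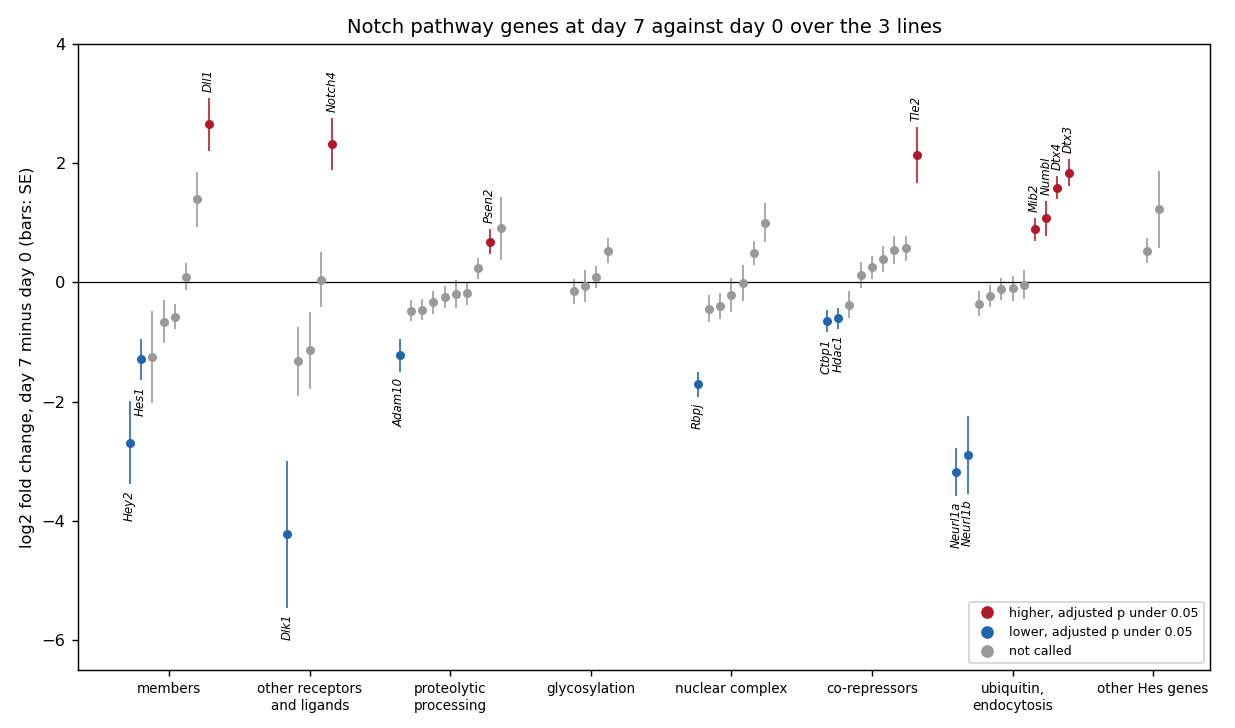
Log2 fold change of day 7 against day 0 over the 3 lines, with SE, for the 8 members and the 48 other pathway genes tested, in columns by role; red and blue points passed an adjusted p of 0.05. Dll1 and Notch4 (2.65 and 2.32) lie at the top and Dlk1, Neurl1a, Neurl1b and Hey2 at the bottom. The 4 glycosylation genes and 2 other Hes genes tested have no called point, where 16.8% of all genes were called higher and 16.6% lower.

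Among members with at least 10 counts in every library, Dll1 had the widest range, 3.34 on the log2 scale. The 5 tested genes whose centred log2 profile over the 6 libraries was nearest to that of Dll1 were Tcea2, Sema6c, Gm46447, Kif13b and 2900089D17Rik, at Euclidean distances of 0.223 to 0.428. Tcea2, a transcription elongation factor, was at 4.95 and 28.7 CPM in shControl, 4.18 and 18.2 CPM in shNFIB and 3.35 and 31.8 CPM in shMLL1 at day 0 and day 7. Its Pearson correlation with Dll1 over the 6 libraries was 0.998. Among the members, Hey1 and Hey2 had the highest correlation of the tested pairs, 0.930. All these points share their libraries, and with 6 points a correlation only describes them.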

How the data were processed

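Total RNA libraries (TruSeq, paired reads of 100 bp) of the 6 conditions were analysed from the table of counts per Ensembl gene that the authors deposited. Per the labels and the methods, the authors trimmed reads with Trimmomatic 0.39, aligned them to GRCm38 with HISAT2 2.2.1, filtered them by mapping quality with SAMtools 1.12, removed PCR duplicates and ran htseq-count 0.11.1. No count was normalized, and 0 rows named no gene. The annotation release and strand setting are not given in the sources used here, so that reads of overlapping genes are uncertain. Symbols, positions and exon lengths came from GENCODE M21, which held 55141 of the 55401 genes, and promoter sequences from RefSeq.

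In edgeR 4.0.16 (R 4.3.3), genes were filtered with filterByExpr, scaled by TMM and fitted over all 6 libraries by the quasi-likelihood method with line and day as terms. Adjusted p-values are Benjamini-Hochberg over the 16660 genes tested, at a false discovery rate of 5%. The common biological coefficient of variation was 0.281. SE is the log2 fold change divided by the root of F. The day comparison sets 3 libraries against 3 and each line comparison 2 against 2, so that p-values rest on the spread between these libraries. Day 0 and day 7 are paired by line, as the same hairpin line gave both. Deviations from the day means correlated between days by 0.382 in shControl, 0.421 in shNFIB and 0.248 in shMLL1. Pairs of single libraries were compared without a test, by log2 fold changes with a prior count of 0.125 and exact Clopper-Pearson 95% intervals, which cover counting error only. The paper's fold of 2 was the threshold. The fits were also run on simulated counts with a smaller spread than these data, which checks the code and not the power of the comparisons. Alternatives were DESeq2 1.42.0, its size factors, library size alone, no filter, no block, fewer libraries and a prior count of 2.

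The members and gene lists were chosen with earlier results of these data known. Named genes were the 10 members, up to 10 called pathway genes with the largest change, the 2 hairpin targets, and the 5 genes nearest in profile to the member with the widest range. The marker genes, Psen2, Mib2, Ctbp1, Hdac1, Hes5, Hes6, Hes7, Jag2, Dll3, Dll4, Ncstn, Dner, Spen, Aph1c and the coactivators fall outside this rule and were named after their values were seen. Figures were drawn with matplotlib 3.10.9 in Python 3.11.15.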

Additional observations from a re-analysis of the deposited data

Results flagged for a closer look

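For 2 members the lines went opposite ways between day 0 and day 7, each with a counting interval clear of 0. Notch2 had a log2 fold change of -0.32 within shNFIB and of 0.62 within shMLL1. Jag1 had one of -0.42 within shControl and -1.76 within shNFIB, and of 0.18 within shMLL1. The difference between the lines was not tested, since each response is that of 1 pair of libraries. Among all 16660 genes tested, 2607 (15.6%) met the same criterion in at least 1 pair of lines.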

How the results depend on the processing

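Without the block on line (no replicate block), 0 members were called lower at day 7 and 1792 genes in all were, with Hes1 at an adjusted p of 0.0801 and Hey2 at 0.103. With the libraries scaled by size alone, with no filter on low counts, or with DESeq2, 2 members were called higher, Notch1 joining Dll1. Scaling by size alone moved the median of all genes from 0.00 to 0.14 on the log2 scale. When each line was left out in turn, between 967 and 2534 genes were called higher and between 1076 and 2666 lower, with 1 to 2 members higher and 0 to 5 lower. Without shMLL1, Notch3, Jag1 and Hey1 were called lower as well, and Notch2 turned from 0.09 to -0.21 without a call (range -0.21 to 0.30 over the lines left out). Without shNFIB neither Hes1 nor Hey2 was called, and without shControl Hey2 did not pass the filter.

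In shNFIB against shControl, where 19 genes were called higher and 44 lower, there were 341 and 347 without the filter, 296 and 319 with DESeq2, and 246 and 287 with the 4 libraries compared. Notch1 was then called lower (1 member) with the 4 libraries alone. In shMLL1 against shControl, where 2 were called higher and 3 lower, there were 236 and 290 without the filter, 181 and 243 with DESeq2, and 77 and 106 with the 4 libraries compared, and Hey2 was called (1 member) without the filter and with DESeq2. The cause was not tested. Of single genes in the fits, and of pathway counts, 262 values kept direction and call, 26 lost a call, 15 gained one, 7 counts moved and 1 value turned its direction (Notch2, above). Between pairs of libraries, 149 values stayed within their counting interval and 19 did not, all of the latter under scaling by library size. Members with at most 100 counts in each library (Dll1, Hey1, Hey2, Nrarp and Heyl) are limited by depth. For Dll1 this holds most at day 0, with 17 counts in shControl, 16 in shNFIB and 10 in shMLL1.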
